A study of Mus musculus with 10 samples.

Results

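The genotype difference, Trem2-/- minus WT, was taken within each of 5 diet conditions, so that every difference compared a pair of libraries from mice on the same diet. All 10 of the 10 arrays of the series entered, as 5 pairs. Each array held RNA from microglia that had been purified by flow sorting from male C57BL/6 mice 8 to 12 weeks old, per the labels, and carried 1 library of 1 genotype and 1 condition. The WT mice and the mice lacking Trem2 were either untreated controls (Ctl), fed 0.2% cuprizone for 4 weeks (Cu4) or 12 weeks (Cu12), or fed it for those times and then given 2 weeks of recovery (Cu4+2, Cu12+2). The labels do not say how the Trem2-/- line was made or backcrossed, whether a library came from 1 mouse or from a pool, or which markers were used in the sort. The pairs asked which genotype differences were present in every condition, and which appeared only with cuprizone.

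TREM2 is a surface receptor of microglia that binds lipids and lipoproteins and signals through the adaptor TYROBP (DAP12) and the kinase SYK. Cuprizone, a copper chelator, kills oligodendrocytes, and microglia then take up and break down myelin debris rich in cholesterol. Microglia in such lesions are known to switch on a set of genes for lipid handling, lysosomal digestion and adhesion, often called the disease-associated programme, a part of which depends on TREM2.

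Values are log2 of the deposited intensities, in which 1 unit is a doubling, and a level near the median of the whole table, 5.27, is close to background. A pair value is the Trem2-/- library minus the WT library of the same condition. The labels name no replicate animals, so the spread behind every test is that of the genotype difference between conditions. In these bulk samples, fewer cells of a type and less RNA per cell cannot be told apart. The submitters' sample numbers form a first run of 6 arrays (Ctl, Cu4, Cu4+2) and a second run of 4 arrays (Cu12, Cu12+2), so that feeding time and run cannot be told apart, but both libraries of a pair always lay in the same run. The Trem2-/- library titled Cu12 carried a time label of 4 weeks and was treated as titled. Of the 7 microglial markers on the array, all exceeded the table median, and their summed linear intensity was 18200 to 25110 in WT and 20530 to 24820 in Trem2-/- libraries. Neutrophil markers differed by run: their sum over 6 genes was 4434 to 13036 in first-run libraries and 144.1 to 297.8 in second-run libraries.

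Over the 5 pairs, 28 of the 10792 genes tested (0.259%) differed between the genotypes at an adjusted p under 0.05 (limma, condition as a block). Of these, 8 genes (0.0741%) were higher and 20 (0.185%) lower in Trem2-/- microglia. At an unadjusted p under 0.05 the count was 1162 genes (10.8%). The number rested on single pairs. Without the Ctl pair 21 genes were higher and 82 lower. Without the Cu4 pair 2 were higher and 6 lower, without Cu4+2 3 and 10, without Cu12 2 and 6, and without Cu12+2 2 and 11. Trem2, Rasgrf2, Mid1, Olfr111, Lrmda and G530011O06Rik passed in each of these 5 reduced fits, 3 genes in 4 of them, 18 in only 1 or 2 and 1 in 0. With levels below the table median set to it, an alternative added after the values were seen, 3 genes were higher and 7 lower; they were 10 of the 28, the 6 above and Apobec2, Entpd4, Igsf6 and Pecam1. The levels of the genotypes did not overlap in any library for 108 of all genes tested (1%), among them 19 of the 28. All 5 pair values had the same sign for 515 genes on the higher side (4.77%) and 658 on the lower side (6.10%).

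Trem2 itself was read in every library first. In WT microglia its level was 10.72, 10.81, 10.68, 10.70 and 10.66 in Ctl, Cu4, Cu4+2, Cu12 and Cu12+2. In Trem2-/- microglia it was 7.53, 7.78, 7.85, 7.48 and 7.26 in the same order. WT levels thus moved little with diet, and every Trem2-/- library lay far below them while staying above the table median. Whether the probe reads exons outside the deletion was not tested. The mean pair value was -3.13 ± 0.10 (SE, n = 5 pairs, limma adjusted p = 4.3e-07).

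A difference was called diet-independent when the 5 pair values had the same sign, each was at least 0.5 in size and the smallest was at least 0.5 of the largest. Of the genes tested, 6 (0.0556%) met this rule: Rasgrf2 and Ache were higher, and Trem2, Mid1, Olfr111 and Entpd4 lower, in Trem2-/- microglia. All 6 also passed the genotype test, which uses the same pair values and is not separate evidence. Entpd4 and Ache were just inside the ratio, at 0.503 and 0.544, and Apobec2 and Xylt1 just outside it, at 0.479 and 0.459. Without the Ctl pair 33 genes met the rule, and without Cu4+2 or Cu12+2 11 each.

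**Figure D1:**
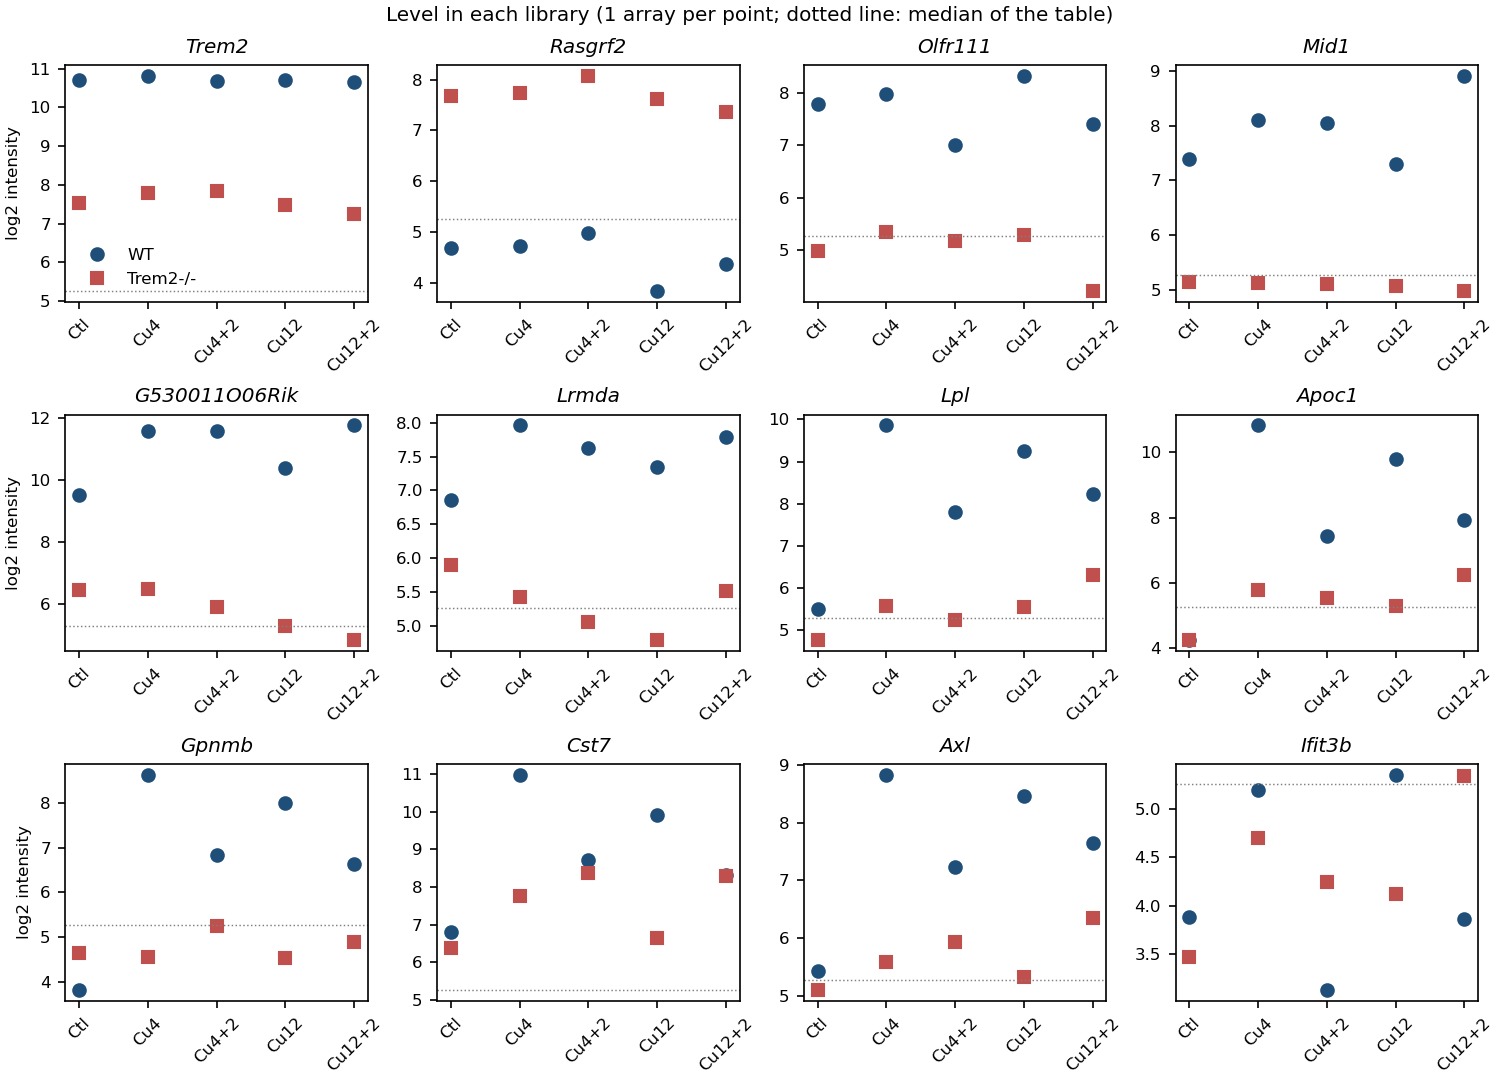
Log2 intensity (vertical axis) of 12 genes in each of the 10 libraries, by diet condition (horizontal axis), with circles for WT and squares for Trem2-/- and a dotted line at the table median of 5.27; each point is 1 array, so there are no error bars. Trem2, Rasgrf2, Olfr111 and Mid1 are apart in every condition, while Apoc1, Gpnmb and Cst7 part mainly at Cu4 and Cu12.

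Rasgrf2, an exchange factor that activates Ras and Rac GTPases, was the most raised gene of the 28. WT levels were 4.69, 4.74, 4.99, 3.86 and 4.39 from Ctl to Cu12+2, all below the table median. The Trem2-/- libraries read 7.67, 7.74, 8.07, 7.62 and 7.36. The gene was thus near background in every WT library and well above it in every Trem2-/- library. The mean pair value was 3.16 ± 0.13 (adjusted p = 1.5e-06), and within the runs it was 3.02 in the first and 3.37 in the second. Since the WT levels are not above background, these sizes are not exact; with WT set to the table median the mean was 2.42 (6.23e-05).

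Mid1, an X-linked ubiquitin ligase of microtubules, and its neighbour G530011O06Rik, a transcript of unassigned function, were both low in Trem2-/- microglia. Mid1 read 7.38, 8.11, 8.04, 7.30 and 8.91 in WT libraries. It read 5.14, 5.12, 5.10, 5.08 and 4.98 in Trem2-/- libraries, which are levels of background in each condition. The mean pair value of Mid1 was -2.86 ± 0.21 (adjusted p = 0.000307). G530011O06Rik is the next tested gene to Mid1 on chromosome X, and had the largest mean difference of the 28. Its WT levels were 9.51, 11.58, 11.59, 10.37 and 11.76 and its Trem2-/- levels 6.44, 6.48, 5.87, 5.27 and 4.81. The pair values were -3.07, -5.10, -5.72, -5.10 and -6.95, so that it was far lower in each condition but too uneven for the diet-independent rule. Its mean was -5.19 ± 0.41 (adjusted p = 0.000383). Whether the probes of these neighbours read separate transcripts was not tested.

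Olfr111, which encodes an olfactory receptor, was found at 7.78, 7.98, 7.0, 8.32 and 7.41 in WT microglia. Its Trem2-/- levels of 4.98, 5.34, 5.16, 5.28 and 4.22 were near background. The mean pair value was -2.71 ± 0.17 (adjusted p = 8.62e-05). The adjacent Olfr110, also an olfactory receptor gene, differed by -0.88 ± 0.14 (adjusted p = 0.0463), with WT levels of only 4.98 to 6.27. The receptors are close relatives, and how far their probes share signal was not tested.

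Entpd4 and Ache showed smaller differences of the same kind. Entpd4, an intracellular enzyme that hydrolyses nucleotides, read 7.22, 7.27, 7.27, 6.74 and 6.86 in WT and 6.46, 6.29, 6.25, 6.23 and 6.28 in Trem2-/- libraries. Trem2-/- levels were nearly flat, and WT levels were lower in both second-run libraries than in the first run. Its mean pair value was -0.77 ± 0.10 (adjusted p = 0.0213). Ache, which encodes acetylcholinesterase, read 5.53, 5.36, 5.52, 4.90 and 4.72 in WT against 6.10, 6.39, 6.11, 5.6 and 5.62 in Trem2-/- libraries. The genotypes did not overlap, although all levels were dim. The mean pair value of Ache was 0.76 ± 0.10 (adjusted p = 0.0199). With WT levels below the table median set to it, its Cu12 and Cu12+2 pairs were 0.33 and 0.35, under the rule's size, and the gene did not pass (0.171).

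**Figure D2:**
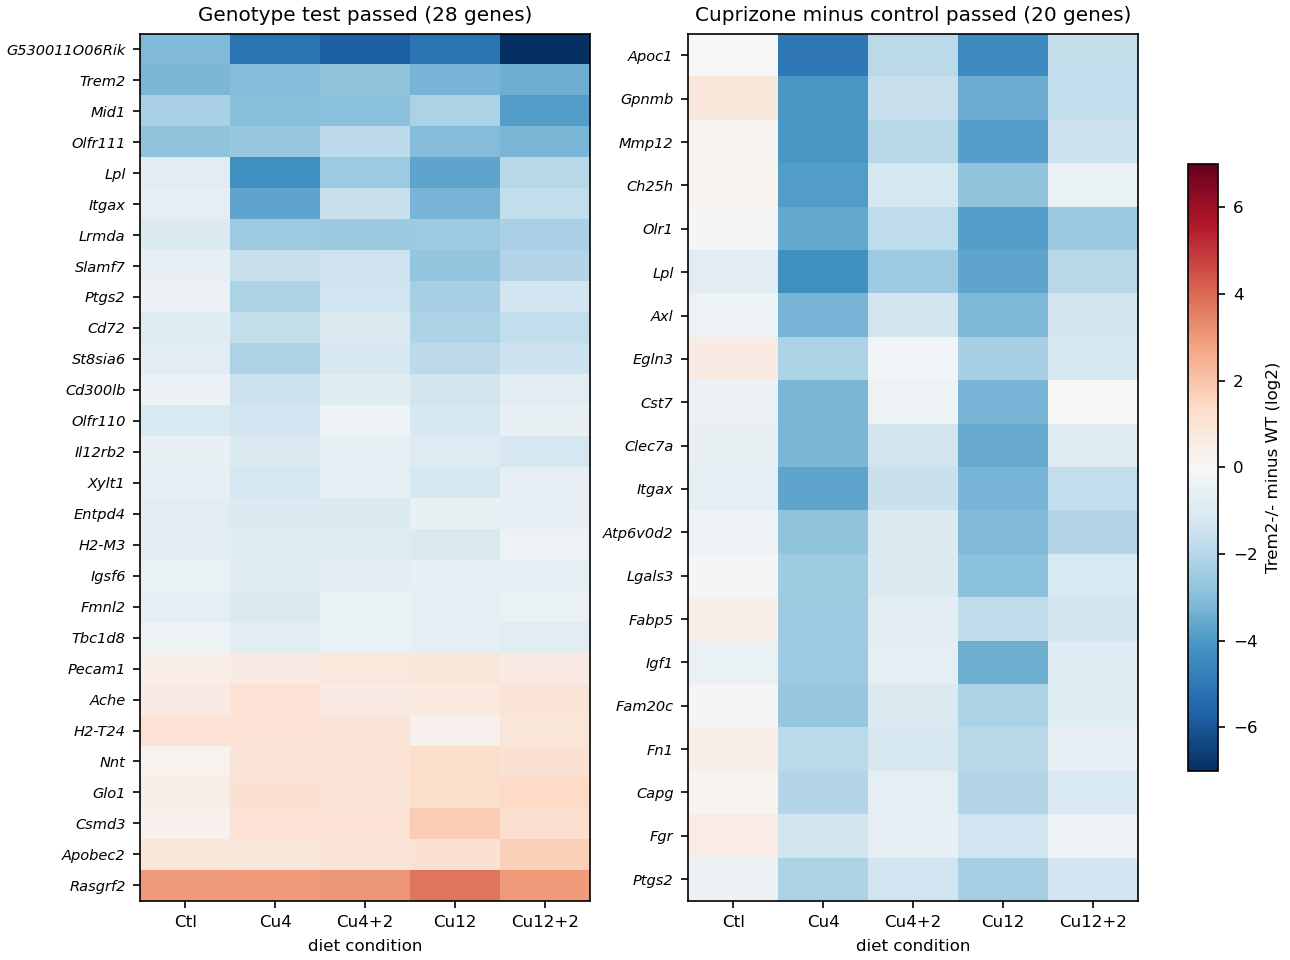
Pair values (Trem2-/- minus WT, log2, colour scale) by diet condition (columns) for the 28 genes that passed the genotype test and the 20 that passed the cuprizone minus control test (rows). Rasgrf2 and Trem2 keep their colour across all 5 columns, whereas Apoc1, Gpnmb and Mmp12 are deepest at Cu4 and Cu12.

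Immune receptors were among the other lower genes. Lrmda, a leucine-rich repeat gene known from pigment cells, had pair values of -0.97, -2.53, -2.58, -2.55 and -2.28 and a mean of -2.18 ± 0.21 (adjusted p = 0.0024). Its Ctl pair was the smallest and the 4 others were alike. Among inhibitory and activating receptors, Cd72 had a mean of -1.49 ± 0.17 (adjusted p = 0.0102), Slamf7 of -1.66 ± 0.24 (0.0236) and Cd300lb of -0.98 ± 0.15 (0.0346). These were 3 of the 23 tested members of a list of SLAM, CD300 and CD72 group receptors, against 0.185% of all genes tested. None of the list passed as higher. The list was chosen with earlier results of these data known, so its share is not separate evidence. The list's median pair values were -0.18, -0.53, -0.12, -0.29 and -0.24. St8sia6, a sialyltransferase, had a mean of -1.49 ± 0.18 (adjusted p = 0.0109), and Il12rb2, a subunit of the interleukin-12 receptor, of -0.87 ± 0.11 (0.018). Cd72, St8sia6 and Apobec2 passed in 4 of the 5 fits without a pair, whereas Fmnl2, a formin with a mean of -0.65 ± 0.11 (0.0448), passed in 0 of 5. Slamf7 and Cd300lb passed in only 1 of the 5, and Il12rb2 in 2. For Cd300lb, 3 WT and 5 Trem2-/- levels were below the table median. With such levels set to it, its mean was -0.19 (limma adjusted p = 0.554). In that setting Slamf7 (-1.51, 0.0681), Cd72 (-1.44, 0.0798), St8sia6 (-1.37, 0.0958), Il12rb2 (-0.75, 0.165) and Fmnl2 (-0.65, 0.0953) did not pass either.

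Lpl, Itgax and Ptgs2 passed both the genotype test and the test of diet dependence given below. Lpl, the lipase of triglyceride-rich lipoproteins, had the largest mean of them, -2.65 ± 0.41 (adjusted p = 0.0358). Itgax, the integrin subunit CD11c, had a mean of -2.19 ± 0.36 (0.0498), and Ptgs2, the inducible prostaglandin synthase, of -1.53 ± 0.23 (0.0346). Each of these 3 genotype calls held in only 1 of the 5 fits without a pair, and was lost without the block, with the array of conflicting label counted as 4 weeks, and with an intensity trend. Itgax was also lost under quantile normalization (0.0563). They were lower in each of the 5 pairs, but their means cover pair values from -0.42 (Ptgs2, Ctl) to -4.28 (Lpl, Cu4).

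Of the genes that were higher, Apobec2, a member of the cytidine deaminase family, had pair values of 0.87, 0.79, 0.91, 1.06 and 1.65 (mean 1.05 ± 0.13, adjusted p = 0.0116). Csmd3, a large membrane protein gene, had a mean of 1.05 ± 0.17 (0.0448) with a Ctl pair of only 0.30. For Nnt, the mitochondrial transhydrogenase, the mean was 0.87 ± 0.14 (0.0358), and the Ctl pair was 0.23. In both genes the WT level was highest at Ctl, at 10.01 for Csmd3 and 7.27 for Nnt. Glo1, the glyoxalase that removes methylglyoxal, had a mean of 1.0 ± 0.14 (0.0208). Its 2 probes differed at Ctl, with pair values of 0.42 for the brighter probe and 1.48 for the dimmer, and were alike in the other conditions, so its place among cuprizone-dependent genes depends on the probe. Pecam1, an adhesion molecule, had a mean of 0.63 ± 0.09 (0.0236). It is on a list of 5 endothelial markers, of which Cdh5, Cldn5 and Tie1 never exceeded the table median. The remaining marker, Flt1, went the other way in every condition but Ctl, with pair values of 0.22, -1.81, -0.69, -1.47 and -1.20.

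Several of the 28 lay on chromosome 17, which carries Trem2. They were 7 of the 28 (25%), among them Trem2 itself, the deleted gene, which lies there by definition. The share was 550 of the 10768 tested genes with a known chromosome (5.11%) and 3 of the 97 cuprizone-dependent genes (3.09%). Counted in tested genes along the chromosome, Apobec2 lay 4 from Trem2, Olfr111 60, Olfr110 61, H2-M3 63, H2-T24 75 and Glo1 205. H2-T24 and H2-M3 encode nonclassical class I molecules and moved in opposite directions, by 0.82 ± 0.12 (adjusted p = 0.0236) and -0.76 ± 0.11 (0.0223). In a list of class I genes, which does not hold H2-T24, H2-M3 alone passed of 12 tested (0.259% of all genes). The median pair values of that list lay between -0.14 and -0.01.

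The runs allowed a comparison in libraries that had not chosen the genes. Applied to the 3 first-run pairs alone, the diet-independent rule chose 17 genes. In the second run, 10 of them (58.8%) had both pairs in the same direction and at least 0.5 in size, against 3.07% of all genes with both second-run pairs alike in sign and of that size. These 10 were Trem2, Rasgrf2, Mid1, Olfr111, G530011O06Rik, Apobec2, Cd72, Ache, Il12rb2 and Entpd4. Conversely, of 286 genes chosen in the 2 second-run pairs, 17 (5.94%) met the size in all first-run pairs, against 0.297% of all genes. The genotype effect tested within the first run called 7 genes (0.0649%) and within the second 19 (0.176%), with 5 shared: Trem2, Rasgrf2, Mid1, Olfr111 and G530011O06Rik. The difference between the runs was called for 0 genes (0%), and 667 genes (6.18%) had an unadjusted p under 0.05.

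Pot1b, a protein that binds telomere ends, was a first-run gene that did not carry over. Its WT levels were 7.41, 7.46 and 7.49 in the first run and 6.42 and 6.47 in the second. Trem2-/- levels were 6.52, 6.34, 6.58, 6.37 and 6.4, so that the second-run WT libraries read like Trem2-/- libraries of either run. The first-run effect was -0.97 (adjusted p = 0.0327) and the second-run effect -0.06 (0.888). Tested directly, the difference between the runs was 0.92 ± 0.18 and did not pass (limma adjusted p = 0.536). The gene lies on chromosome 17.

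The genotype difference itself depended on diet for a group of genes that were all lower in Trem2-/- microglia on cuprizone. Taking the mean of the Cu4 and Cu12 pairs minus the Ctl pair, 20 genes (0.185%) passed, all 20 with a more negative difference on cuprizone and 0 (0%) with a more positive one; 524 genes (4.86%) had an unadjusted p under 0.05. The test has 2 residual degrees of freedom, and the control is 1 pair. The count was 15 without Cu4 and 11 without Cu12, and 61 without either Cu4+2 or Cu12+2. Gpnmb, Apoc1, Mmp12, Lpl, Axl, Cst7, Itgax and Olr1 passed in each of these 4 reduced fits. Without the block, with 6 group means, 1 gene passed. With levels below the table median set to it, 3 of the 20 passed, Apoc1, Axl and Mmp12. Genes with no such level, such as Cst7 (-2.81, adjusted p = 0.0767) and Ptgs2 (-1.84, 0.137), kept their value there and no longer passed.

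Of 25 tested genes in a list of lipid handling, chosen with earlier results of these data known, 5 passed (0.185% of all genes). Among them Apoc1, an apolipoprotein, read 4.26, 10.83, 7.43, 9.79 and 7.94 in WT libraries. In Trem2-/- libraries it read 4.24, 5.80, 5.55, 5.31 and 6.25. The genotypes were alike at Ctl, and the WT level was far higher on cuprizone, so the pair value on cuprizone minus control was -4.74 ± 0.31 (adjusted p = 0.00057). Lpl was similar, at 5.49, 9.86, 7.79, 9.24 and 8.22 in WT against 4.75, 5.57, 5.23, 5.53 and 6.30 in Trem2-/- libraries. The change of its difference was -3.25 ± 0.36 (0.0083). The others of the 5 were Ch25h, which makes 25-hydroxycholesterol (-3.60 ± 0.47), Olr1, a receptor of oxidised lipoprotein (-3.57 ± 0.36), and Fabp5, a fatty acid carrier (-2.56 ± 0.37).

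Of 36 tested genes in a list of lysosomal genes, 1 passed (0.185% of all genes), Atp6v0d2, a subunit of the proton pump. Its difference changed by -2.72 ± 0.41 (adjusted p = 0.0452). However, 2 of its WT and all 5 of its Trem2-/- levels were below the table median. With such levels set to it, the change was -1.86 and did not pass (0.798). Gpnmb, a lysosomal membrane glycoprotein, read 3.82, 8.62, 6.83, 7.99 and 6.64 in WT and 4.64, 4.57, 5.24, 4.52 and 4.89 in Trem2-/- libraries. Trem2-/- microglia thus stayed at background in all 5 conditions. The change of the difference was -4.57 ± 0.32 (adjusted p = 0.00057), but both Ctl levels behind it were below the table median. With such levels set to the median it was -3.03 and did not pass (0.103). Mmp12, macrophage elastase, changed by -4.16 ± 0.30 (0.00057), and by -3.62 in that setting (0.0408). Cst7, an inhibitor of lysosomal cathepsins, had WT levels of 6.81, 10.98, 8.71, 9.92 and 8.31 and Trem2-/- levels of 6.37, 7.76, 8.38, 6.66 and 8.30. Its libraries were thus apart at Cu4 and Cu12 and close in both recovery conditions.

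Surface receptors and secreted factors made up most of the rest. Axl, a receptor for bridging molecules on dying cells, changed by -2.87 ± 0.27 (adjusted p = 0.0045), Clec7a, the receptor dectin-1, by -2.80 ± 0.31 (0.008), and Itgax by -2.77 ± 0.30 (0.008). Among secreted proteins, Igf1, a growth factor, changed by -2.53 ± 0.38 (0.042), Lgals3, a galectin, by -2.60 ± 0.29 (0.0083), and Fn1, fibronectin, by -2.38 ± 0.31 (0.0202). Each of the 6 had its lowest pair values at Cu4 and Cu12.

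**Figure D3:**
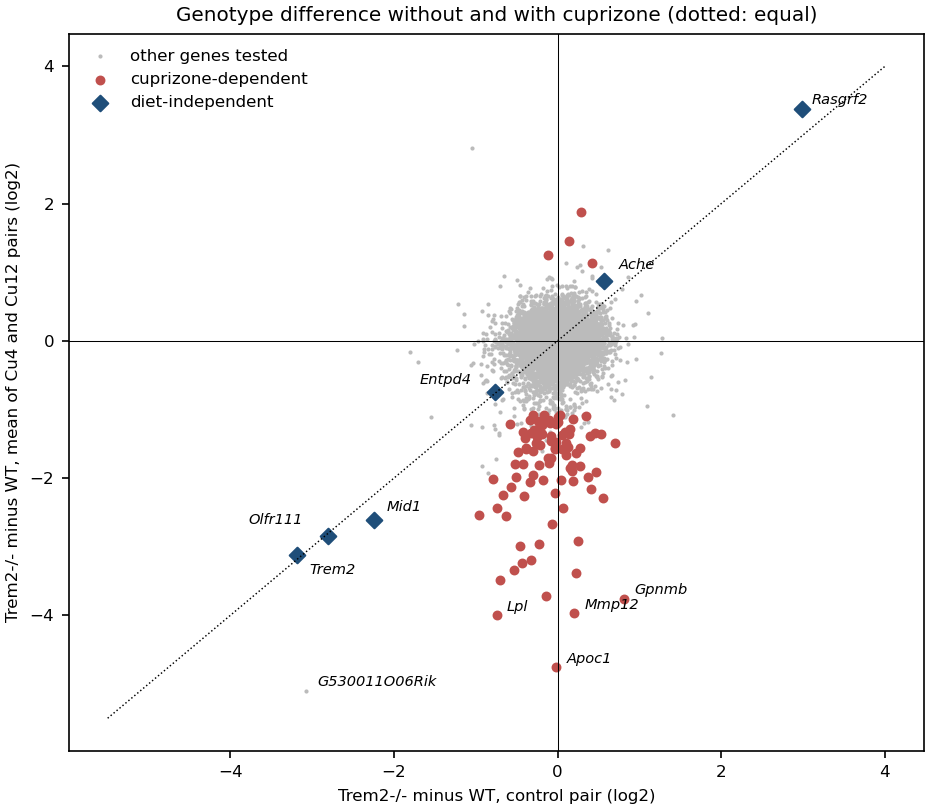
Pair value at Ctl (horizontal axis, log2) against the mean of the Cu4 and Cu12 pair values (vertical axis, log2) for the 10792 genes tested, 1 point per gene; diamonds are the 6 diet-independent genes and red circles the 97 cuprizone-dependent genes, and the dotted line marks equal values. Rasgrf2 and Trem2 lie on or near the line, while Apoc1 and Gpnmb lie far below it with Ctl values of -0.02 and 0.81.

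By pair values alone, a gene was called cuprizone-dependent when the Cu4 and Cu12 pairs had the same sign and were at least 1 in size, with a Ctl pair under 0.5 of the smaller. The rule took 97 genes (0.899%), of which 93 were lower and 4, Klrd1, Gpr165, Myo18b and Glo1, higher in Trem2-/- microglia. Xylt1 and St8sia6 were just inside the limit on the Ctl pair, and Cd72 and Pik3r3 just outside. The count was 234 without Cu4 and 146 without Cu12. All 20 genes of the test above were among the 97, which were chosen on the same pairs.

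The recovery pairs had no part in choosing these 97 genes. Of the 93 lower genes, 84 (90.3%) were also lower in both recovery pairs, against 26.7% of all genes tested, a count added after the values were seen. The median pair values of the 97 were -0.11, -1.53, -0.48, -1.64 and -0.73 from Ctl to Cu12+2, of which the Ctl, Cu4 and Cu12 medians were set by the rule. The choice of genes with large cuprizone pairs also favours smaller values in the recovery pairs, so no order is read from them. The median ratio of the recovery pair to the cuprizone pair was 0.32 after 4 weeks and 0.416 after 12 weeks. At least 0.5 of the smaller cuprizone pair was left for 24 genes at Cu4+2 and for 47 at Cu12+2. In both it was left for 14 genes, among them Lpl, Olr1, Ptgs2, Lrmda, Slamf7, St8sia6 and Cd300lb. In neither was it left for 40, among them Apoc1, Cst7, Axl, Clec7a, Igf1, Lgals3 and Apoe. All 5 Trem2-/- levels of Olr1 and of Cd300lb were below the table median. With such levels set to it, the Cu4+2 pair of Olr1 was -0.12 against -1.95 at Cu4, so it was not kept there. Both recovery pairs of Cd300lb were then 0, and its cuprizone pairs, -0.51 and -0.46, were under the rule's size.

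Tested directly, recovery minus cuprizone changed the genotype difference of 8 genes (0.0741%), with 608 genes (5.63%) at an unadjusted p under 0.05. Cst7 moved most, by 3.07 ± 0.23 (adjusted p = 0.0026), since its pair values went from -3.22 and -3.26 on cuprizone to -0.33 and -0.01 in recovery. Apoc1 moved by 2.97 ± 0.26 (0.0043), Mmp12 by 2.26 ± 0.24 (0.0181), Clec7a by 2.25 ± 0.25 (0.0181), Gpnmb by 2.09 ± 0.26 (0.0327), Axl by 1.89 ± 0.22 (0.0221) and Itgax by 1.82 ± 0.25 (0.0464). Their differences were smaller in recovery, yet Apoc1, Mmp12, Gpnmb, Axl and Itgax still had pair values below -1 in both recovery conditions. The last gene, Ifit3b of the interferon response, read between 3.12 and 5.36 in the 10 libraries, near or below the table median. The count was 8 without Ctl, 10 without Cu4, 42 without Cu4+2, 2 without Cu12 and 34 without Cu12+2; Cst7 and Apoc1 passed in all of these. With levels below the table median set to it, 0 of the 8 passed. Recovery minus control was called for 0 genes (0%), with 392 genes (3.63%) at an unadjusted p under 0.05, for 14 without Cu4+2 and for 12 without Cu12+2. The moderated F over all 3 states called 13 genes (0.12%), which were all among the 20, and 0 with that floor; it called 6 without Cu4, 5 without Cu12, 85 without Cu4+2 and 79 without Cu12+2.

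**Figure D4:**
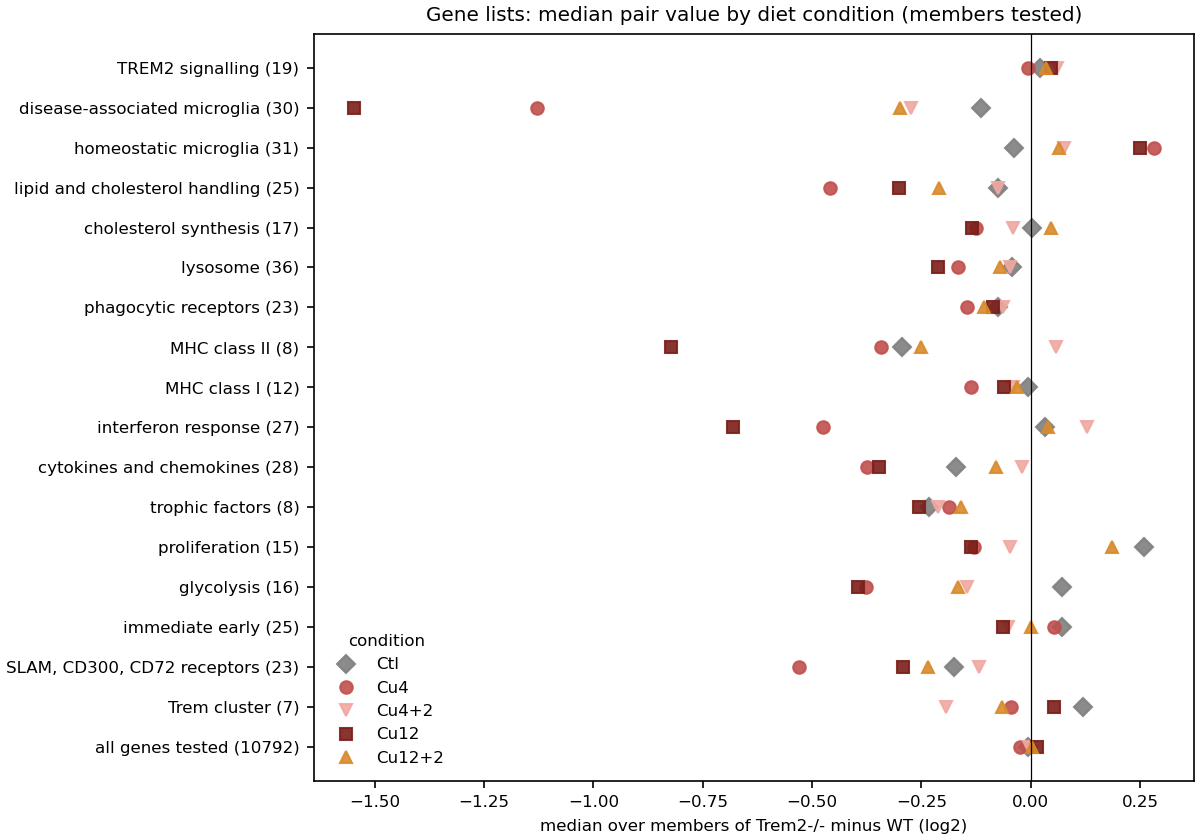
Median pair value of each gene list (horizontal axis, Trem2-/- minus WT, log2) in the 5 diet conditions, 1 symbol per condition, with the number of members tested in brackets; no error bars are drawn. The disease-associated list sits at -1.13 (Cu4) and -1.55 (Cu12) and nearer to 0 in the other conditions, and the TREM2 signalling list lies between -0.01 and 0.06 throughout.

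Whole gene lists were compared by the same 5 medians, beside all genes tested, whose medians lay between -0.02 and 0.01. The lists were chosen with earlier results of these data known, so their shares are not separate evidence. For 30 disease-associated genes the medians were -0.11, -1.13, -0.27, -1.55 and -0.30. In this list 29 of 30 members were lower in both the Cu4 and the Cu12 pair (28.9% of all genes), 11 passed the cuprizone minus control test (0.185% of all genes), 2 (Lpl and Itgax) passed the genotype test (0.259%), and 0 were diet-independent (0.0556%). Homeostatic microglial genes, such as P2ry12, had medians above 0 in every condition but Ctl. Over 31 genes they were -0.04, 0.28, 0.08, 0.25 and 0.06. Of them, 0 passed either test, which is near the shares of all genes (0.259% and 0.185%). P2ry12, a receptor for ADP, had pair values of -0.20, 0.37, 0.35, 0.47 and 0.15 (adjusted p = 0.499).

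Several other lists had lower medians on cuprizone. Interferon response genes (27 tested) had medians of 0.03, -0.47, 0.13, -0.68 and 0.04, and 21 were lower in both cuprizone pairs (28.9% of all genes). The 8 class II genes had medians of -0.29, -0.34, 0.06, -0.82 and -0.25. All 8 were lower in both cuprizone pairs (28.9% of all genes), among them Cd74, the invariant chain, at -0.97 and -1.51. For 25 lipid and cholesterol handling genes the medians were -0.07, -0.46, -0.08, -0.30 and -0.21, and lysosomal genes (36 tested) had medians of -0.17 and -0.21 on cuprizone. Glycolytic genes (16 tested) had medians of -0.38 and -0.39 there and 0.07 at Ctl, and 0 passed the cuprizone minus control test (0.185% of all genes). No interferon, class II, lysosomal or glycolytic gene passed the genotype test (0.259% of all genes). In lists of this size 0 is near these shares.

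The medians of the signalling partners of TREM2 showed no such pattern. Over 19 genes tested, they lay between -0.01 and 0.06. In this list 0 genes passed the genotype or the cuprizone minus control test. The shares of all genes were 0.259% and 0.185%, and 0 of 19 is near them. Tyrobp, the adaptor of TREM2, read 12.60, 12.65, 12.63, 12.57 and 12.53 in WT and 12.59, 12.62, 12.64, 12.48 and 12.42 in Trem2-/- libraries. Its mean pair value was -0.04 ± 0.08 (adjusted p = 0.898).

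Promoter sequence was available from RefSeq (GRCm38.p6, 250 bases before to 50 after each start) for 15 of the 20 genes that passed the cuprizone minus control test; Apoc1 and Lpl are named only. TGACTCA, the AP-1 site, on either strand was present in 4 of these 15 (26.7%): Gpnmb, Itgax, Mmp12 and Olr1. Mmp12 has 2 start sites in the table, and only 1 of them, shown here, holds a match. It was present in 8 of 72 cuprizone-dependent genes (11.1%), in 384 of 8671 tested genes (4.43%) and in 5.2% of all promoters. Shown are the 100 bases before the start in the 3 genes whose match lies upstream, on the strand of the gene, with the match in capitals (Itgax chr7:128129450-128129549, plus strand, 56 bases before the start; Mmp12 chr9:7347274-7347373, plus strand, 44 bases before; Olr1 chr6:129507166-129507265, minus strand, 60 bases before).
Itgax: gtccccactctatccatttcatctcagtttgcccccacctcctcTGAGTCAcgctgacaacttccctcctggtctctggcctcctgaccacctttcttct
Mmp12: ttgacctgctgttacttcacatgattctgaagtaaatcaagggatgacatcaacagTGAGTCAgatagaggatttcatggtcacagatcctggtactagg
Olr1: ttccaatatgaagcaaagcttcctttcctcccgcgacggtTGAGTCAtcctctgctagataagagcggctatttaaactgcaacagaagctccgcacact
In all, 9 motifs were searched on both strands, chosen with the results known, and no test was made. Among the 15 genes, TATAAA was present in 3 (20.0%), and CACGTG, TCATGTGA and GAGGAAGT in 1 each (6.67%). The others except TGACTCA were present in 0 of the 15. In the 72 cuprizone-dependent and the 8671 tested genes respectively, TATAAA was present in 26.4% and 8.87%, an interferon-response element in 8.33% and 3.68%, CACGTG in 8.33% and 12.0%, and GAGGAAGT in 4.17% and 3.84%. TCATGTGA was present in 2.78% and 0.946%, the NF-kB site in 1.39% and 0.219%, CAGGAAGT in 0 genes and 4.24%, and TCACGTGA, which contains CACGTG, in 0 genes and 2.32%. A match describes these letters and is no evidence that a factor binds there.

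Across all genes tested, the Cu4 and Cu12 pairs, which share no library, had the highest correlation of pair values (Pearson 0.45 over 10792 genes). The Ctl pair correlated least with the others, at 0.05 to 0.15. The SD of pair values was 0.25 at Ctl, 0.36 at Cu4, 0.26 at Cu4+2, 0.42 at Cu12 and 0.38 at Cu12+2. Pair values of at least 1 in size were found for 24 genes at Ctl (0.222%), 168 at Cu4 (1.56%), 63 at Cu4+2 (0.584%), 250 at Cu12 (2.32%) and 177 at Cu12+2 (1.64%).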

How the data were processed

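Gene expression was measured on 10 microarrays. The deposited values are linear intensities, 1 per probe and array; no source used here states their background correction, summarization or normalization. Log2 was taken with no further scaling. Of 24567 probes, 21259 named 1 gene, 1274 several and 2034 were not listed; 21182 matched the RefSeq table of GRCm38.p6. Genes with several probes (888) kept the brightest, and 10792 of 19749 genes had at least 2 arrays above the table median of 5.27. Array number limits the precision.

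Models were fitted with limma 3.58.1 under R 4.3.3 (eBayes, Benjamini-Hochberg over all genes tested, threshold 0.05). The genotype model had the condition as a block (4 residual degrees of freedom). The diet model had the block and a genotype effect per state (2 residual degrees of freedom), and a further model had one per run. Adjusted p-values of single genes are limma's; ± is its SE. The models were tested on simulated data. The samples pair by the titled diet condition. The 28 gene lists, the class rules and the members were chosen with earlier results of these data known. Named were the 12 with the largest differences per class and direction, those nearest a threshold, those passing a test, 4 for each other class and 3 per list; Tyrobp, Apoe, Cd74 and P2ry12 illustrate their lists, and Pot1b was named after its values were seen. Alternatives covered scaling, filter, probes, block, prior, thresholds, each pair left out and, added later, a floor at the table median.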

Additional observations from a re-analysis of the deposited data

Results flagged for a closer look

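In the 28 genes that passed the genotype test, 1 pair stood apart from the other 4 in 3 genes, where the gap to the nearest pair was over 0.71 of the range; chance alone does this in about 1 of 20 sets. With levels as deposited, the Cu12 pair value of Rasgrf2 was 3.765 against 2.98 to 3.08 in the others (gap 0.867 of the range). Its WT level there, 3.86, was below the table median, as in every WT library. The Trem2-/- level of 7.62 lay within those of the other conditions. With WT set to the table median, the Cu12 pair value was 2.35, within the 2.10 to 2.80 of the other conditions. That setting gives every WT library the same level, so it cannot show where the gap comes from. The cause of the gap was not tested. The Ctl pair value of Lrmda was -0.966 against -2.28 to -2.58 (0.815), and the Cu12 pair value of H2-T24 was 0.312 against 0.84 to 1.02 (0.744).

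The genotype difference changed between diet states, by limma's test of the difference itself, in 20 genes for cuprizone minus control. The changes, in log2, were -4.74 for Apoc1, -4.571 for Gpnmb, -4.163 for Mmp12, -3.601 for Ch25h, -3.571 for Olr1, -3.253 for Lpl, -2.865 for Axl, -2.846 for Egln3, -2.811 for Cst7 and -2.803 for Clec7a. They were -2.774 for Itgax, -2.723 for Atp6v0d2, -2.603 for Lgals3, -2.564 for Fabp5, -2.53 for Igf1, -2.494 for Fam20c, -2.383 for Fn1, -2.231 for Capg, -1.878 for Fgr and -1.845 for Ptgs2. For recovery minus cuprizone they were 3.072 for Cst7, 2.972 for Apoc1, 2.26 for Mmp12, 2.255 for Clec7a, 2.175 for Ifit3b, 2.088 for Gpnmb, 1.887 for Axl and 1.825 for Itgax. Where a level lay below the table median, as for Gpnmb, Olr1 and Ifit3b, the size is not exact.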

How the results depend on the processing

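No gene that passed a test changed sign under any alternative run for it, and the counts not given here stayed within 1.5 times. Leaving out 1 pair gave 2 to 21 higher and 6 to 82 lower genes in the genotype test, and 7 to 33 diet-independent and 97 to 234 cuprizone-dependent genes. It gave 11 to 61 genes for cuprizone minus control, 0 to 14 for recovery minus control, 2 to 42 for recovery minus cuprizone and 5 to 85 for F. Without the Ctl pair no contrast with the control and no cuprizone-dependent class could be formed. In the genotype test, 1 higher and 5 lower genes passed without the replicate block (genotype alone), 1 and 7 with 3 diet states in its place, and 2 and 6 with the array of conflicting label counted as 4 weeks; 32 lower genes passed with no filter. With 6 group means and no replicate block, cuprizone minus control gave 1 gene, recovery minus cuprizone 0 and F 0. An intensity trend with a robust prior gave 19 higher and 43 lower genes, then 66, 4 and 47 for cuprizone minus control, recovery minus control and recovery minus cuprizone, and 77 for F. Subtracting array medians gave 14 for recovery minus cuprizone and 22 for F, quantile normalization 5 for recovery minus cuprizone, a filter of 5 arrays 5, and no filter 20 for F. A ratio of 0.7 left 2 diet-independent genes, and a size of 0.5 gave 314 cuprizone-dependent genes. Levels floored at the table median, an alternative added after the data were seen, gave 3 higher and 7 lower genes, 3 for cuprizone minus control, 0 for recovery minus cuprizone and 0 for F. The cause of these changes was not tested. The scalings moved the median of all genes by 0.0026 and 0.0182. Dim genes near the table median have compressed differences.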

Other observations

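Some genes had a large pair value in 1 condition alone, which is 1 library against 1 and has no test. Granule genes of neutrophils led the 14 genes (0.13% of all genes tested) with a large value at Cu4+2 alone. Camp had a pair value of -2.72 there, Ngp -2.47, Lcn2 -2.31 and Mpo -2.21. In that pair the neutrophil marker sum was 13036 in the WT and 4434 in the Trem2-/- library. Ttr, made by the choroid plexus, led the 17 genes (0.158%) of the Cu4 pair, at 4.14 in WT and 9.58 in Trem2-/-. It also read 10.95 and 9.87 at Cu4+2. Of 66 genes (0.612%) with a large value at Cu12 alone, Asns, the asparagine synthetase, had -2.81 and Il1rn, the interleukin-1 receptor antagonist, -2.67. A further 79 genes (0.732%) had one at Cu12+2 and 7 (0.0649%) at Ctl.

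Large values in both second-run pairs alone were found for 12 genes (0.111% of all genes tested). S100a6, a calcium-binding protein, read 8.49, 8.36 and 8.03 in first-run and 3.91 and 4.26 in second-run WT libraries. Second-run Trem2-/- libraries read 5.09 and 6.34. Both second-run WT levels and the 5.09 were below the table median, so the sizes of its second-run pair values are not exact. Trps1, a zinc-finger repressor, had pair values of -1.47 and -2.14 there.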
